A study of Mus musculus with 2 samples.

Results

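The genes described here encode the enzymes that build triglyceride in adipose tissue, 10 of the 56980 genes in the count tables. They were listed by name, as acyltransferases and phosphatases of the pathway, by a rule that uses no measured value, although earlier results of these data were known when the list was made. Gpam, Gpat3 and Gpat4 carry the acylation of glycerol 3-phosphate, Agpat2 and Agpat3 that of lysophosphatidate, Lpin1 and Lpin2 the removal of phosphate from phosphatidate, Mogat1 the acylation of monoacylglycerol, and Dgat1 and Dgat2 the final acylation of diacylglycerol. All 10 were found in both libraries and passed the filter on low counts, with between 1144 (Mogat1) and 88564 (Gpam) unique molecular identifiers (UMIs, counted RNA molecules) in the nuclei that were kept.

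The data came from single-nucleus RNA sequencing of gonadal visceral adipose tissue (VAT) of female C57BL/6J mice aged 2 months, untreated and without an engineered allele, as 2 libraries from 2 mice, called replicate 1 and replicate 2. The sample labels name adipocytes as the cell type and 10x Genomics as the platform, whereas the library protocol names a Singleron kit and the nuclei were those of the whole tissue. After nuclei with more than 500 genes, more than 1000 UMIs and less than 15% mitochondrial UMIs had been selected, 2833 of 7344 nuclei with 8466237 UMIs remained in replicate 1 and 12225 of 17148 with 48068273 UMIs in replicate 2. The libraries stood apart in the share of mitochondrial UMIs, with a median of 6.2% in replicate 1 and 0.621% in replicate 2, and 27 barcodes were shared by nuclei of both.

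Clustering without the 10 genes and without the other pathway genes gave 6 named cell types, which were 6390 adipocyte-like, 2152 mesothelial-like, 1420 fibro-adipogenic progenitor-like (FAP, preadipocytes), 1201 immune-like, 408 endothelial-like and 149 smooth muscle-like nuclei. All 7 adipocyte markers, all 9 mesothelial, all 7 endothelial, all 8 smooth muscle, all 5 pan-immune and 6 of 8 FAP markers were highest in the type named after them in both libraries. Of the finer lists this held for 6 of 7 macrophage, 6 of 8 T and NK, 3 of 5 B and 4 of 6 dendritic markers. It held for 1 of 4 mast and 2 of 6 lymphatic endothelial markers. The types had been named from these same markers, so the counts describe the naming and are no independent check of it. A cluster of 2620 nuclei of low depth met the naming rule for no type as a whole, and its subclusters stayed unnamed with it. Taken alone, a subcluster of 1421 of these nuclei met 7 of 7 adipocyte markers, and one of 1199 nuclei 7 of 7 endothelial markers. A further 718 nuclei held adipocyte markers beside those of another type. All of these were left unnamed and entered no test. The smallest sums were those of replicate 1, with 48 endothelial nuclei (152695 UMIs) and 23 smooth muscle nuclei (64040 UMIs), so that levels there had wide counting errors.

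In this pathway glycerol 3-phosphate is acylated, acylated again, stripped of its phosphate and acylated a last time, and each step is carried by several enzymes encoded by separate genes. The mitochondrial enzyme made by Gpam and the endoplasmic reticulum enzymes made by Gpat3 and Gpat4 open the pathway. Loss of Agpat2 in humans and of Lpin1 in mice leads to loss of fat, and Dgat2 is the enzyme best known for esterifying newly made fatty acids, whereas Dgat1 also takes up those released and recycled.

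The glycerol 3-phosphate acyltransferases are shown first by their promoters, because their members moved in opposite directions among adipocytes, as described further on. The 250 bases before the canonical start of each gene were read from GRCm39 with the GENCODE vM39 annotation and are written 5′ to 3′ on the strand of the gene. Gpam lies at chr19:55055700-55115784 on the minus strand and its window at chr19:55087929-55088178, Gpat3 at chr5:100993579-101046968 on the plus strand with the window chr5:100993895-100994144, and Gpat4 at chr8:23661281-23699042 on the minus strand with the window chr8:23698462-23698711. Capitals mark matches, on either strand, to the motifs searched, which were the E-box CACGTG, the CCAAT box, the GC box GGGCGG, the nuclear receptor core motif AGGTCA, the cyclic AMP response element TGACGTCA, the C/EBP motif TTGCNNAA and the TATA motif TATAAA.
Gpam: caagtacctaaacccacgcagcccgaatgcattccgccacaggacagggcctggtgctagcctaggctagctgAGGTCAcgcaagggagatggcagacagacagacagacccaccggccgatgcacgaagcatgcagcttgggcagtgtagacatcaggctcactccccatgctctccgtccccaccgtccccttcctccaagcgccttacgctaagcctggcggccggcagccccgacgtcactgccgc
Gpat3: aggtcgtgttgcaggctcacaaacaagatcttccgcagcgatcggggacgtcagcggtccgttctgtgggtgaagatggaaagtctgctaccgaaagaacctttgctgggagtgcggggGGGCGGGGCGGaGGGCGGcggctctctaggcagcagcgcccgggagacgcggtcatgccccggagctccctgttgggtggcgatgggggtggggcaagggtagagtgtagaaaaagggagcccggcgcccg
Gpat4: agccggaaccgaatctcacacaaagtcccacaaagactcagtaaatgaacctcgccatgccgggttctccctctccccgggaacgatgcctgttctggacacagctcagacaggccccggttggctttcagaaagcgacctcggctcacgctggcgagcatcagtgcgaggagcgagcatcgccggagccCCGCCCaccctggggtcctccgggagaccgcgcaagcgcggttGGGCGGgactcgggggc

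The Gpam window held a single AGGTCA, which was present in 13.1% of the windows of 21757 protein-coding genes, and no GC box. The windows of Gpat3 and Gpat4 held GC boxes, 3 in Gpat3, of which the first pair overlapped, and 2 in Gpat4, and such a box was found in 36.3% of all windows. None of these 3 windows held CACGTG (6.26% of all), CCAAT (36.5%), TGACGTCA (1.70%), TTGCNNAA (9.34%) or TATAAA (11.9%). Each of these 3 windows lies within the annotated span of its gene, so starts further upstream are annotated and were not searched. These matches are letters in a window and were not set against any measure of binding.

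Across the cell types, 9 of the 10 genes were higher in adipocytes than in the mean of the other 5 types, and none was lower, in edgeR's quasi-likelihood test on UMIs summed per library and cell type with the library as a block (Benjamini-Hochberg adjusted p below 0.05 over 12093 genes). Of all genes tested, 33.3% (4031) were higher in adipocytes and 30.8% (3730) lower. This balance depended on the scaling. It was 2437 higher and 4474 lower in DESeq2, and 1977 and 4940 with plain library totals, with 8 of the 10 genes higher in each. No gene of the 10 was lower at an unadjusted p below 0.05 or in DESeq2. Nuclei are not replicates, so the sums were tested. With the library as a block, a difference between types was set against how far it varied between the 2 libraries. The estimate of that spread was shared in part over genes. Since the types were drawn from the same nuclei, the p-values describe the separation of these types. The values below are UMIs of a gene scaled to the UMI total of its cell type and library (CPM), and a log2 fold is given with its standard error.

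Gpam, the mitochondrial enzyme, was counted at 1576 CPM in adipocytes of replicate 1 and 2106 CPM in those of replicate 2, a mean of 1841 ± 374 (SD, n = 2). In the other types Gpam stood between 138 CPM in endothelial nuclei of replicate 1 and 353 CPM in mesothelial nuclei of replicate 2. The adipocyte values lay far above all others in both libraries, a log2 fold of 3.38 ± 0.17 or 10.4-fold (edgeR, adjusted p = 7.47e-30). Outside adipocytes the mesothelial nuclei held the highest level, 322 and 353 CPM, and differed from the endothelial nuclei, 138 and 242 CPM, by a log2 fold of 0.85 ± 0.29 (edgeR, adjusted p = 0.0227).

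Gpat3, an enzyme of the endoplasmic reticulum, reached 488 and 321 CPM in adipocytes of replicates 1 and 2, and elsewhere 26.2 to 71.7 CPM, again without overlap. Its log2 fold of 3.48 ± 0.18 was 11.2-fold (edgeR, adjusted p = 9.40e-29). Gpat3 was higher in mesothelial nuclei, at 71.7 and 68.5 CPM, than in FAPs, at 37.2 and 33.2 CPM, by a log2 fold of 1.01 ± 0.30 (edgeR, adjusted p = 0.0114). Long noncoding genes overlap Gpam (Gm31356, 18324 bases) and Gpat3 (Gm36793, 31919 bases) on the opposite strand, so that unspliced reads there could belong to either.

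Gpat4, the other enzyme of the endoplasmic reticulum, showed a much flatter pattern. It was at 97.7 and 120 CPM in adipocytes, 56.9 and 55.9 CPM in mesothelial nuclei, 64.0 and 62.7 CPM in FAPs, 62.7 and 61.5 CPM in immune nuclei, 39.3 and 74.1 CPM in endothelial nuclei and 125 and 78.7 CPM in smooth muscle nuclei. The smooth muscle value of replicate 1 rested on 8 UMIs. The log2 fold in adipocytes was 1.21 ± 0.19 or 2.32-fold (edgeR, adjusted p = 8.45e-08), and the difference from smooth muscle did not pass on its own (log2 fold 0.88 ± 0.36, adjusted p = 0.0516).

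Of the acyltransferases of lysophosphatidate, Agpat2, the gene lost in a form of lipodystrophy, reached 1121 and 697 CPM in adipocytes, and elsewhere 107 to 255 CPM, without overlap. Its log2 fold was 2.84 ± 0.16 (edgeR, adjusted p = 1.54e-26). Agpat2 (chr2:26483061-26494637) lies within the span of the oppositely oriented Gm20532 and overlaps Egfl7, and the strand used in counting is not given in the sources used here. Gm20532 was itself counted at 112 and 225 CPM in adipocytes, and reads of the pair could not be told apart with certainty.

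Agpat3, which carries the same reaction and is known from many tissues, varied less between the types. It was at 93.4 and 71.1 CPM in adipocytes, 82.6 and 86.6 CPM in FAPs, 73.9 and 69.6 CPM in immune nuclei, 59.0 and 75.9 CPM in mesothelial nuclei, 62.5 and 68.0 CPM in smooth muscle nuclei and 45.8 and 60.5 CPM in endothelial nuclei. The groups overlapped. The log2 fold in adipocytes was 0.70 ± 0.20 (edgeR, adjusted p = 0.00158), and this call depended on the scaling, as it was 0.41 ± 0.23 in DESeq2 (adjusted p = 0.123) and 0.20 ± 0.20 with plain library totals (adjusted p = 0.414). The median log2 fold of all genes moved with it, from 0.11 in the fit with TMM factors to -0.21 and -0.40, so that relative to that median Agpat3 stood at 0.59, 0.62 and 0.61. With the TMM factors kept, the log2 difference was 0.58 without replicate 1 and 0.91 without replicate 2. With library totals instead it was -0.023 and 0.49, adipocytes of replicate 2 being below FAPs and mesothelial nuclei in plain CPM. In single pairs of the fit with TMM factors adipocytes were higher than endothelial nuclei by a log2 fold of 1.01 ± 0.32 (edgeR, adjusted p = 0.00795), than mesothelial nuclei by 0.62 ± 0.26 (adjusted p = 0.0368) and than immune nuclei by 0.69 ± 0.27 (adjusted p = 0.0237), while smooth muscle nuclei (0.86 ± 0.38, adjusted p = 0.0760) and FAPs (0.34 ± 0.26, adjusted p = 0.286) did not pass. Agpat3 overlaps by 19586 bases the protein-coding Gm56820 on the same strand, so that reads of that stretch could belong to either.

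Lpin1, the main phosphatidate phosphatase of fat, stood at 792 and 767 CPM in adipocytes, and elsewhere at 73.5 to 152 CPM. Its log2 fold was 3.40 ± 0.16 or 10.5-fold (edgeR, adjusted p = 1.26e-30). Lpin2, its relative, was the only gene of the 10 that did not pass in adipocytes, with a log2 fold of 0.19 ± 0.26 (adjusted p = 0.557), which was 0.07 relative to the median of all genes and turned to -0.33 with plain library totals and -0.11 in DESeq2.

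The levels of Lpin2 were low throughout. It was at 20.7 and 34.2 CPM in adipocytes, 31.0 and 42.2 CPM in FAPs, 22.4 and 78.8 CPM in immune nuclei, 26.2 and 40.8 CPM in endothelial nuclei, 15.6 and 50.1 CPM in smooth muscle nuclei and 12.6 and 31.2 CPM in mesothelial nuclei. In each type replicate 2 was the higher of the pair. Immune nuclei exceeded mesothelial nuclei in both libraries, with a log2 fold of mesothelial over immune of -1.1 ± 0.38 (edgeR, adjusted p = 0.0196), whereas immune against adipocyte did not pass (adjusted p = 0.349). Within the immune nuclei of replicate 2 Lpin2 was at 78.9 CPM in macrophages (138 UMIs; 95% Poisson interval 66.3 to 93.2) and 83.7 CPM in T and NK cells (14 UMIs; 45.8 to 140). In replicate 1 the macrophages stood at 19.8 CPM (8 UMIs; 8.55 to 39.0), and the T and NK cells held no UMI, where 3 UMIs would have been 127 CPM.

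Mogat1, which acylates monoacylglycerol on a side route to diacylglycerol, was counted with few UMIs. It was at 31.1 and 22.2 CPM there, and at 4.1 to 10.2 CPM in FAPs, mesothelial and immune nuclei. In endothelial nuclei it was at 0 and 9.08 CPM, where 3 UMIs of replicate 1 would have been 19.6 CPM, and in smooth muscle nuclei at 31.2 CPM (2 UMIs) and 3.58 CPM (1 UMI). The log2 fold was 2.39 ± 0.35 (edgeR, adjusted p = 1.12e-08). Mogat1 overlaps by 1168 bases the oppositely oriented gene BC035947, which was counted at 40.6 and 54.6 CPM in adipocytes and at 2.06 and 5.97 CPM in FAPs, and without a stated strand reads of that stretch could belong to either.

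The diacylglycerol acyltransferases rose together. Dgat1 reached 458 and 424 CPM in adipocytes, and elsewhere 54.5 to 93.7 CPM, a log2 fold of 3.15 ± 0.17 (edgeR, adjusted p = 4.33e-28). Dgat2 reached 2349 and 1364 CPM in adipocytes, and elsewhere 191 to 497 CPM, a log2 fold of 3.13 ± 0.16 (edgeR, adjusted p = 1.05e-28). Neither overlapped between adipocytes and the other types, and how often this held over all genes was not counted. Dgat1 shares 3056 bases with the oppositely oriented Hsf1, which was at 28.1 and 23.5 CPM in adipocytes, well below Dgat1.

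**Figure D1:**
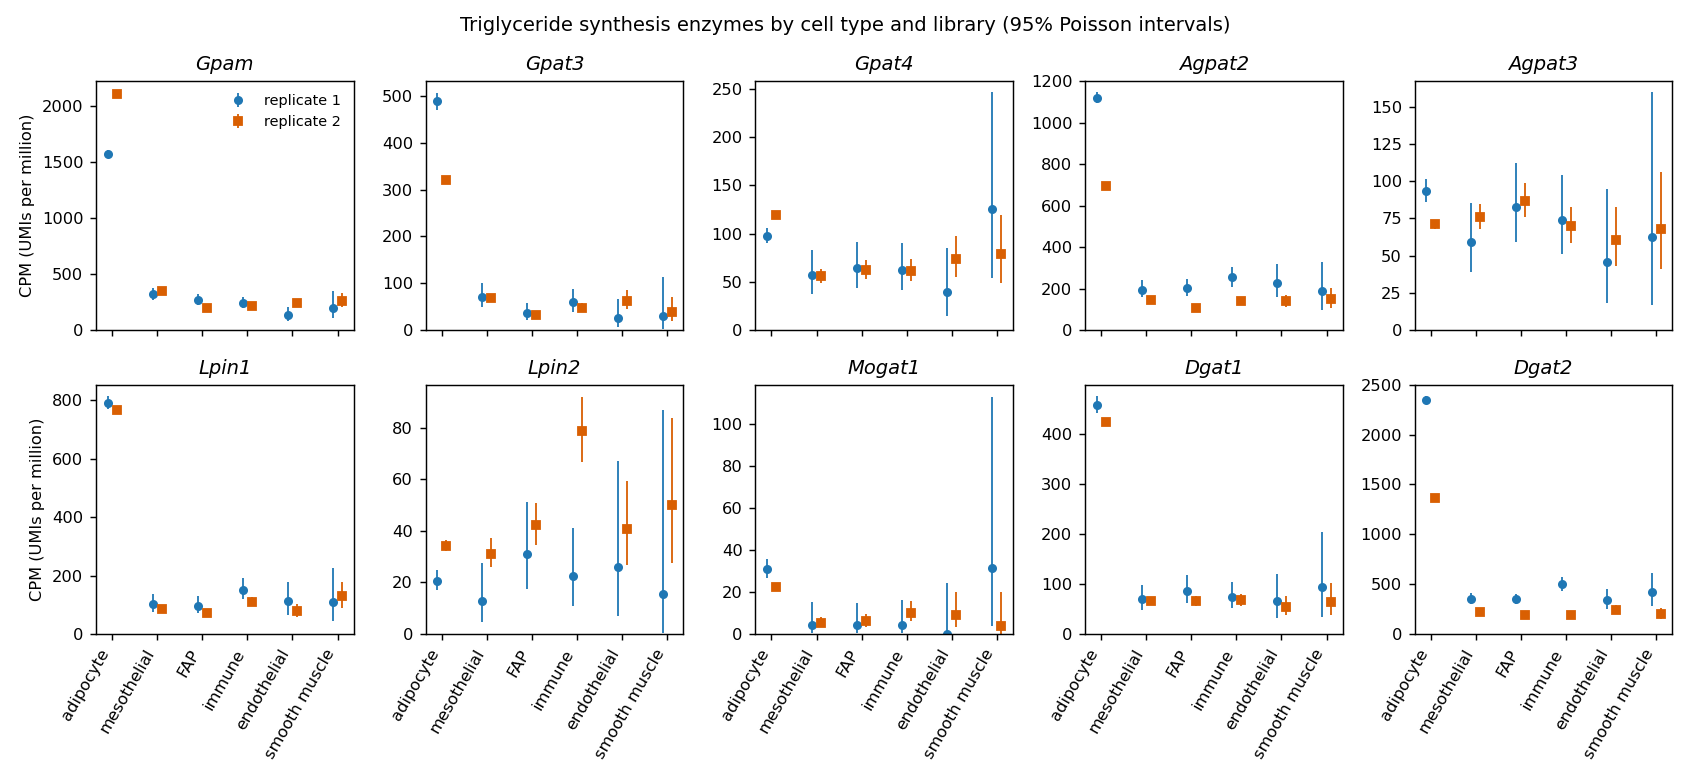
Level of each of the 10 genes (vertical axis, CPM from 0) in the 6 cell types (horizontal axis), with circles for replicate 1, squares for replicate 2 and bars for the 95% Poisson interval of the count. Gpam, Gpat3, Agpat2, Lpin1, Dgat1 and Dgat2 stand far above the other types in adipocytes in both libraries, whereas Agpat3 and Lpin2 do not.

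Adipocytes held between 70.9% (Lpin2) and 96.4% (Lpin1) of the UMIs of these genes among the named types. They also held most UMIs of all genes, 5986942 and 29992259 in replicates 1 and 2. Any other named type held at most 484396 and 4043369, so a large share alone does not show a higher level. In the order of the levels the adipocytes came first for 8 genes, FAPs for Agpat3 (84.6 CPM on average, and 82.2 CPM in adipocytes, although the scaled fit placed adipocytes higher by a log2 fold of 0.34, adjusted p = 0.286, edgeR) and immune nuclei for Lpin2. The first differed from the second in 7 of the 10 genes, the exceptions being Gpat4, Agpat3 and Lpin2, and for Mogat1 the step to smooth muscle was at the border (edgeR, adjusted p = 0.04998). Below the first, 1 of 40 neighbouring pairs differed. This was Agpat3 between adipocytes and immune nuclei (edgeR, log2 fold 0.69 ± 0.27, adjusted p = 0.0237). Over all pairs, 42 of 50 comparisons of adipocytes with another type passed, all of them higher in adipocytes, beside 49.4% of all genes in either direction, whereas 3 of 100 comparisons between other types passed, beside 18.3% of all genes.

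No gene of the 10 was higher in a type other than adipocytes when each type was set against the mean of the rest in edgeR. At an unadjusted p below 0.05 this was so for Lpin2 in immune nuclei only, with a log2 fold of 0.62 ± 0.29 (adjusted p = 0.0914), and for none in DESeq2. With plain library totals and at clustering resolution 0.3, edgeR did call 1 gene higher in immune nuclei, Lpin2 in both cases. All genes were called higher at 16.6% in mesothelial, 12.0% in FAP, 16.5% in immune, 10.6% in endothelial and 6.00% in smooth muscle nuclei. These means include the adipocytes. Against them, 5 were lower in FAPs (Gpam, Gpat3, Agpat2, Lpin1, Dgat2; 6.08% of all genes), 3 in endothelial nuclei (Gpam, Lpin1, Dgat1; 6.81%), 2 in mesothelial nuclei (Lpin1, Dgat2; 8.34%), 2 in immune nuclei (Gpam, Dgat1; 15.1%) and 2 in smooth muscle nuclei (Gpam, Dgat2; 3.37%). Without the library as a block 1 was called in FAPs and 0 in the other types. Lower calls over all genes fell too in that fit, for example from 735 to 240 in FAPs and from 1824 to 890 in immune nuclei. In smooth muscle nuclei 0 were called in DESeq2, with library totals, 15 principal components, resolution 0.3, no integration or the members kept as features, and 4 with no filter on low counts. In FAPs 7 were called at a mitochondrial limit of 5%, where the median log2 fold of the 10 genes was -1.74 against -0.68 as reported, and 4 in DESeq2 or with high doublet scores removed. At the 5% limit only adipocytes, FAPs and immune nuclei were tested. The filter and the types in the mean thus changed together, and their parts were not separated. In immune nuclei the count moved to 1 with DESeq2, library totals or no integration and to 4, 5 and 8 with 15 components, resolution 0.3 and that limit. In mesothelial nuclei it moved to 4 with 15 components or resolution 0.3, and in endothelial nuclei to 6 and 5. The largest of these in FAPs, the precursors of adipocytes, was Gpat3, with a log2 fold of -1.19 ± 0.27 (edgeR, adjusted p = 0.000328).

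Different genes were set side by side on 3 scales, as CPM, per kilobase of summed exons and per kilobase of the whole gene, since nuclei hold unspliced RNA and how far the number of UMIs grows with length was not tested. As CPM, the values given above, the order in adipocytes was Gpam, Gpat3 and Gpat4 in both libraries. In adipocytes of replicates 1 and 2 Gpam was at 138 and 185 CPM per kilobase of exons, Gpat3 at 139 and 91.7, and Gpat4 at 9.60 and 11.7. Per kilobase of the whole gene Gpam was at 26.2 and 35, Gpat3 at 9.14 and 6.02, and Gpat4 at 2.59 and 3.17. Gpat4 was thus the lowest of these genes on every scale, while Gpam and Gpat3 were nearly equal in replicate 1 per kilobase of exons and Gpam was the higher in all other cases.

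For the later steps the order was the same on each scale and in both libraries. Agpat2 was at 249 and 155 CPM per kilobase of exons and Agpat3 at 6.88 and 5.24. Lpin1 was at 66.6 and 64.5 and Lpin2 at 1.62 and 2.67 on that scale. Dgat2 was at 389 and 226 and Dgat1 at 101 and 93.2 per kilobase of exons, and at 79.6 and 46.2 against 40.2 and 37.2 per kilobase of the whole gene.

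The balance of isoforms was then described as the share of a step's UMIs held by each gene, a share in which gene length does not matter when the same genes are compared between types. Outside adipocytes these UMIs can include RNA of adipocytes, whose markers were found in every type, so that the shares describe the RNA found with the nuclei of a type and not which isoform its cells make. At the first step Gpat4 held 4.52% (95% exact Clopper-Pearson interval 4.17 to 4.89) and 4.69% (4.55 to 4.85) in adipocytes of replicates 1 and 2. It held 12.6% and 11.7% in mesothelial nuclei, 17.2% and 21.1% in FAPs, 17.1% and 18.6% in immune nuclei, 19.4% and 19.5% in endothelial nuclei, and 34.8% (8 of 23 UMIs, 16.4 to 57.3) and 20.6% in smooth muscle nuclei. Every other type lay above adipocytes in both libraries. Gpam held the largest part of the step's UMIs in each type, from 56.5% to 82.7%. Gpat3 held 22.6% (21.9 to 23.3) and 12.6% (12.4 to 12.9) in adipocytes, so that the libraries lay apart beyond counting error. In the other types Gpat3 held 8.70% to 16.7%, below adipocytes in replicate 1, but in replicate 2 mesothelial (14.3%), immune (14.6%) and endothelial (16.7%) nuclei stood above adipocytes, so that the order differed between the libraries. The intervals cover counting error only and the differences in share were not tested.

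At the second step Agpat3 held 7.69% (7.09 to 8.33) and 9.26% (8.89 to 9.64) in adipocytes, and between 16.7% and 44.7% in the other types, highest in FAPs with 29.0% and 44.7%. The endothelial share of replicate 1, 16.7%, came from 42 UMIs (6.97 to 31.4), and the smooth muscle share of that library from 4 of 16 UMIs (7.27 to 52.4), and both intervals overlapped that of adipocytes. At the third step Lpin2 held 2.55% (2.12 to 3.03) and 4.27% (4.01 to 4.53) in adipocytes, 24.2% and 36.5% in FAPs, 12.8% and 41.6% in immune nuclei, and 10.9% and 26.4% in mesothelial nuclei. The intervals of these types lay above those of adipocytes in the same library, whereas the smooth muscle share of replicate 1 came from 1 of 8 UMIs and its interval (0.316 to 52.7) held the adipocyte share.

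The last step did not follow this pattern. Dgat1 held 16.3% and 23.7% in adipocytes, 16.6% and 23.2% in mesothelial nuclei, 20% and 25.4% in FAPs, 12.9% and 26.2% in immune nuclei, 16.1% and 18.2% in endothelial nuclei and 18.2% and 24.7% in smooth muscle nuclei. The interval of each other type overlapped that of adipocytes in the same library, although such an overlap is not a test. In endothelial nuclei of replicate 2 the interval, 13.1 to 24.3, only just reached the adipocyte share. In each of the 6 types the share was higher in replicate 2 than in replicate 1, and in adipocytes the intervals of the libraries, 15.8 to 16.9 and 23.4 to 24.1, lay apart.

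**Figure D2:**
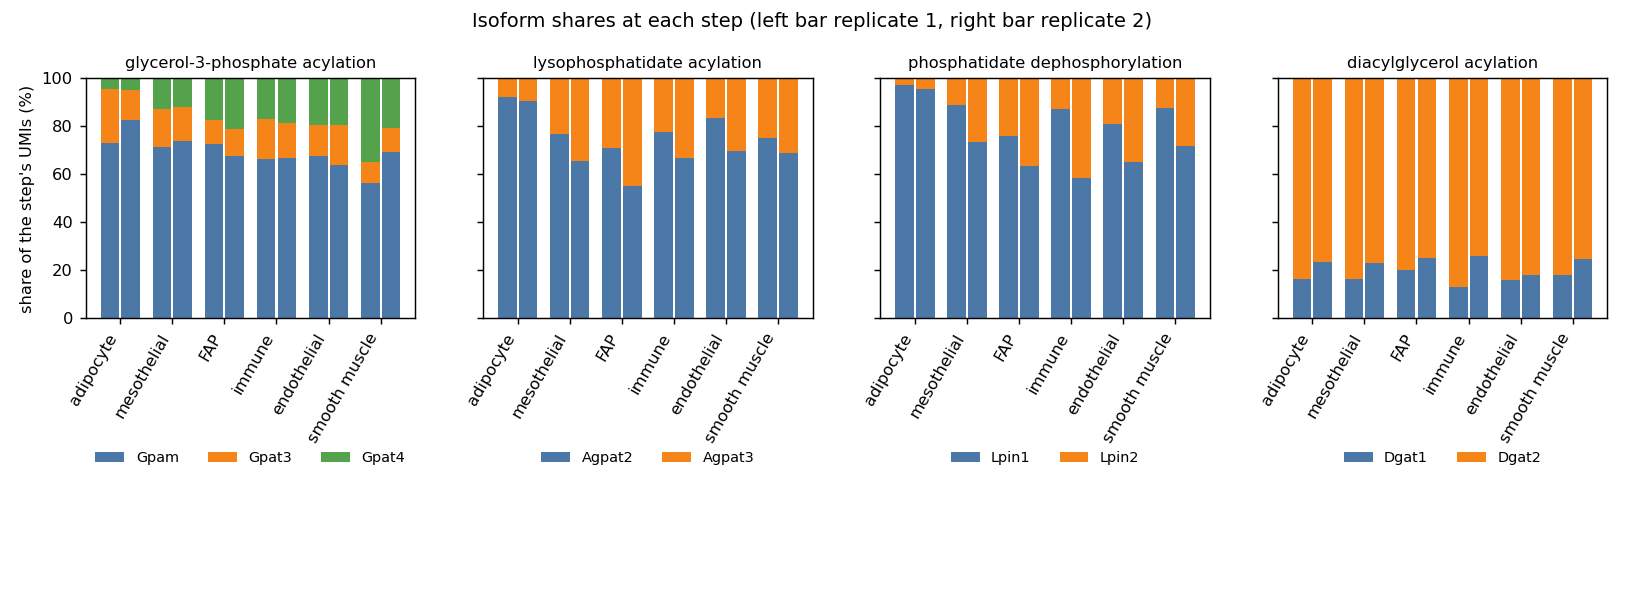
Share of each step's UMIs held by each gene (vertical axis, percent) in the 6 cell types (horizontal axis), 1 panel per step, left bar replicate 1 and right bar replicate 2 of each pair. Gpat4, Agpat3 and Lpin2 take larger shares in every other type than in adipocytes. For Dgat1 and Dgat2 the intervals of adipocytes and each other type overlap within a library, and the differences were not tested. UMIs outside adipocytes can include adipocyte RNA.

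RNA set free from broken cells can be captured with any nucleus, and RNA of a single source keeps its genes in a fixed ratio. The level in each type was therefore divided by that in adipocytes of the same library and set beside 8 adipocyte markers (Adipoq, Plin1, Plin4, Cidec, Lipe, Lep, Car3 and Cfd). All of these but Car3 and Cfd had also served to name the adipocytes. Nuclei with adipocyte markers beside those of another type had been left out of the other types. Both choices can lower the ratios of the markers, and by how much was not tested. The median of the markers lay between 0.168 and 0.290 of the adipocyte level across the other types in replicate 1 and between 0.130 and 0.186 in replicate 2, and single markers between 0.0658 and 0.624.

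Gpam, Gpat3, Agpat2, Lpin1, Dgat1 and Dgat2 were within or below the range of the markers in every other type and library, for example Dgat2 at 0.140 to 0.212 and Lpin1 at 0.0958 to 0.192. At these levels RNA made by the other types and RNA of adipocytes cannot be told apart, as the range of the markers was wide, and what part either has in the differences of Gpat3 and Gpam between other types given above was not tested. Agpat3, at 0.491 to 1.22, and Lpin2, at 0.611 to 2.31, were above the highest marker in all 5 types in both libraries. Gpat4, at 0.402 to 1.28, was above it in both libraries in FAPs, immune and smooth muscle nuclei and in replicate 1 only in mesothelial and endothelial nuclei. Some of these ratios of replicate 1 rest on few UMIs, with 1, 4 and 6 UMIs for Lpin2 in smooth muscle, endothelial and mesothelial nuclei, 4 for Agpat3 in smooth muscle nuclei, and 6 and 8 for Gpat4 in endothelial and smooth muscle nuclei, so that counting error there is wide (for Lpin2 in smooth muscle nuclei a 95% Poisson interval of 0.395 to 87.0 CPM). Mogat1 was above it once, in smooth muscle nuclei of replicate 1, on 2 UMIs.

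**Figure D3:**
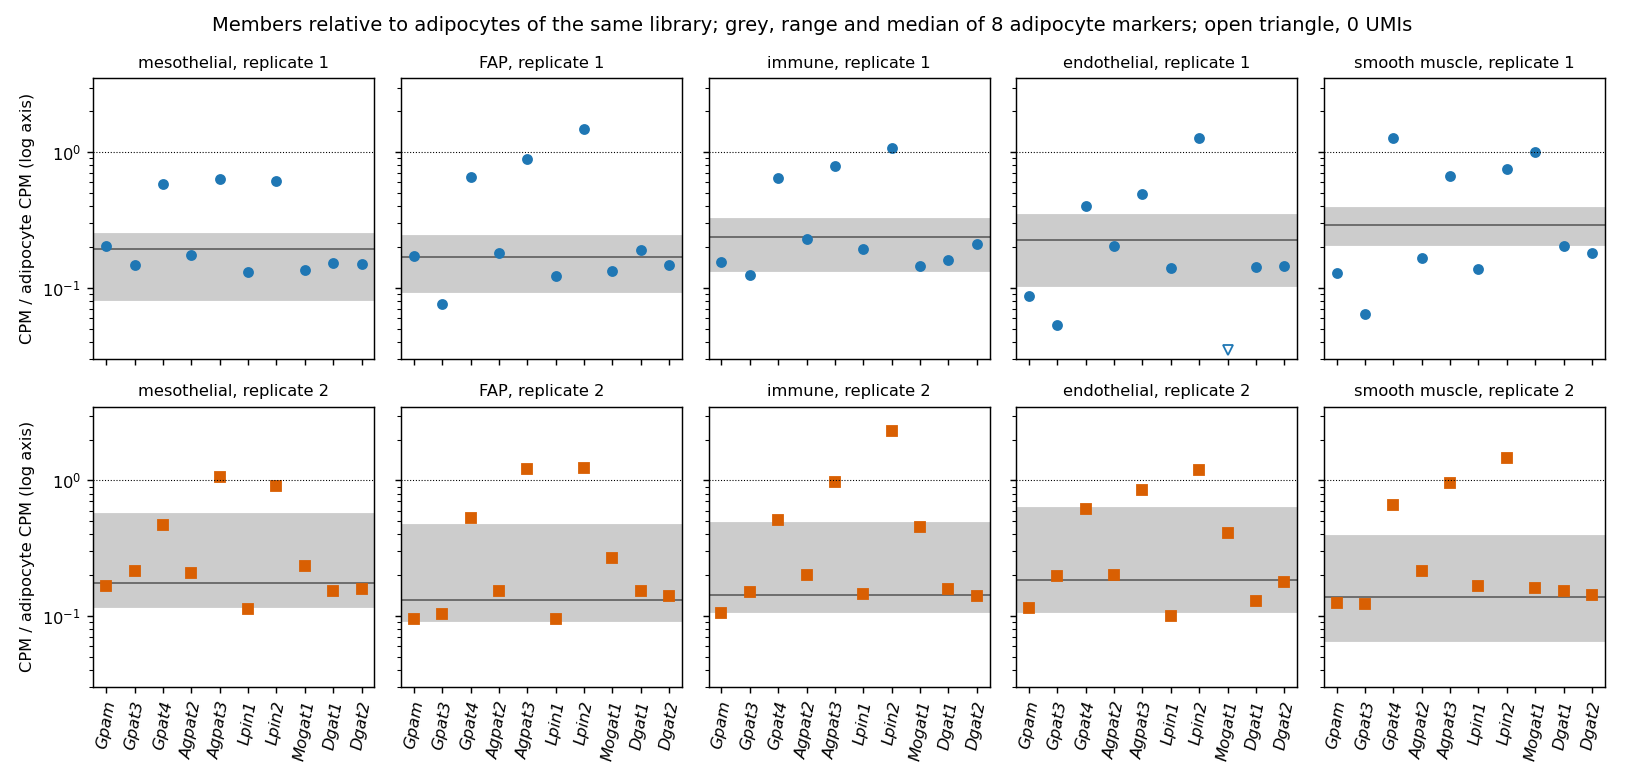
Level of each gene divided by its level in adipocytes of the same library (vertical axis, log scale) for the 5 other cell types (columns) in replicates 1 and 2 (rows), with the range of 8 adipocyte markers in grey and their median as a line. Agpat3 and Lpin2 lie above the grey range throughout, Gpat4 lies above it except in mesothelial and endothelial nuclei of replicate 2, and the other genes lie within or below it, apart from Mogat1 in smooth muscle nuclei of replicate 1.

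The share of nuclei with a UMI, after each nucleus had been thinned to 1000 UMIs, followed the levels. Dgat2 was found in 84.5% and 70.6% of adipocyte nuclei and Gpam in 70.7% and 75.9%, and without thinning in 96.7% and 97.4% and in 92.3% and 97.3%. In immune nuclei Dgat2 was found in 36.8% and 15.9% after thinning and 51.3% and 26.8% without. Adipoq, which immune cells do not make, was found in 18.8% and 9.0% of them after thinning. Agpat3 was found in 7.92% and 7.07% of adipocyte and in 7.26% and 5.48% of immune nuclei after thinning. Median depths were 5133 UMIs in adipocyte and 1738 UMIs in immune nuclei. Without thinning Dgat1 and Dgat2 were both seen in 63.2% and 80.1% of the nuclei of the larger adipocyte subcluster, and Dgat1 alone in 1.41% and 1.58%.

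Among immune nuclei, Agpat3 stood higher in T and NK cells than in macrophages in both libraries. It was at 173 CPM in T and NK cells of replicate 2 (29 UMIs; 95% Poisson interval 116 to 249) against 58.3 CPM in macrophages (102 UMIs; 47.6 to 70.8). In replicate 1 it stood at 212 CPM (5 UMIs; 68.9 to 495) against 66.8 CPM (27 UMIs; 44.0 to 97.2), with overlapping intervals. With 16 T and NK nuclei in replicate 1 the difference was not tested.

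The adipocytes fell into a subcluster of 5663 nuclei and a smaller one of 727 nuclei (137 and 590 in replicates 1 and 2) that was led by Ucp1, the uncoupling protein of thermogenic fat (log2 fold 5.25), Gm10032 (4.97) and Cidea (4.52), and lowest relative to the rest in Hoxb2, Gm31517 and C6. It is called the Cidea-high subcluster here. Its nuclei held more RNA, with a median of 7324 against 4877 UMIs. In edgeR with the library as a block, 4.89% of 14123 genes were higher in the Cidea-high subcluster and 3.38% lower. Of the 10 genes 1 was higher and 2 were lower, all 3 of them at the first step of the pathway. With 2 subclusters in 2 libraries a single gene says little about its own spread. The p-values therefore lean on the estimate shared over genes, and they describe the separation of subclusters drawn from the same nuclei.

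In the Cidea-high subcluster of replicates 1 and 2 Gpam stood at 855 and 1014 CPM, and in the remaining adipocytes at 1663 and 2311 CPM. Both Cidea-high values lay below both others, a log2 fold of -1.05 ± 0.14 (edgeR, adjusted p = 3.45e-07). Gpat3 stood at 203 and 192 CPM, and at 522 and 346 CPM in the remaining nuclei, a log2 fold of -1.04 ± 0.15 (edgeR, adjusted p = 4.00e-06). Gpat4 moved the other way, from 91.5 and 105 CPM in the remaining nuclei to 150 and 198 CPM in the Cidea-high ones, a log2 fold of 0.87 ± 0.16 (edgeR, adjusted p = 0.000113). None of these pairs of groups overlapped. The same held for Dgat1, at 341 and 403 CPM against 472 and 428 CPM, which did not pass (edgeR, adjusted p = 0.468). How often groups did not overlap over all genes was not counted.

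The share of Gpat4 at the first step was thus 12.4% (95% interval 10.2 to 15) and 14.1% (13.3 to 15) in the Cidea-high subcluster against 4.02% (3.68 to 4.38) and 3.79% (3.65 to 3.94) in the other adipocytes. The intervals of the subclusters lay apart in each library. The promoters of these 3 genes are printed above. No motif searched was shared by Gpam with either of the others, while Gpat3 and Gpat4, which moved in opposite directions, both held GC boxes. Any link of these motifs to the shifts was not tested.

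The remaining genes did not pass between the subclusters. Agpat2 was at 1611 and 746 CPM in the Cidea-high subcluster against 1062 and 688 CPM (log2 fold 0.38 ± 0.14, adjusted p = 0.0898, edgeR), and Dgat2 at 1648 and 1180 CPM against 2433 and 1399 CPM (log2 fold -0.37 ± 0.14, adjusted p = 0.0987). For Agpat3, Lpin1, Lpin2, Mogat1 and Dgat1 the log2 folds lay between -0.23 and 0.34, with adjusted p between 0.276 and 0.824.

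Without the library as a block none of the 3 passed (edgeR, adjusted p 0.515, 0.380 and 0.447 for Gpam, Gpat3 and Gpat4), at nearly the same log2 folds. Over all genes, 39 were higher and 15 lower in that fit, against 691 and 478 with the block. With the nuclei of the highest doublet scores removed, 4 adipocyte subclusters arose, and against the mean of the other 3 Gpam and Gpat3 no longer passed (log2 folds -0.33 and -0.25), while Gpat4, Agpat2, Lpin1 and Lpin2 were higher. In that comparison 2073 of all 14486 genes were higher and 1210 lower. Against the largest of these subclusters alone, a comparison added after the data had been seen, the log2 folds were -1.04, -1.04 and 0.85 for Gpam, Gpat3 and Gpat4 and all 3 passed, beside 513 higher and 361 lower of all 14121 genes.

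**Figure D4:**
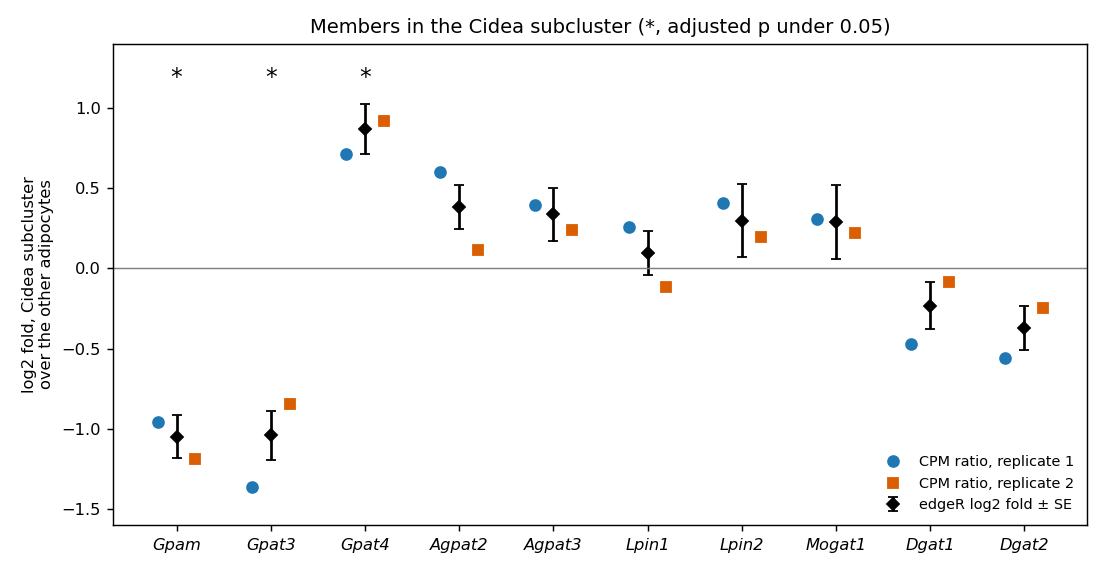
Log2 fold of each gene in the Cidea-high adipocytes over the other adipocytes (vertical axis), with circles and squares for the CPM ratio in replicates 1 and 2 and diamonds for the edgeR estimate ± SE. Gpam (-0.96 and -1.19 in replicates 1 and 2) and Gpat3 (-1.36 and -0.85) lie below 0 and Gpat4 (0.71 and 0.92) above it, and the other genes lie nearer to 0.

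Other genes of the pathway, 53 in 9 lists drawn up by function, were described by count. In adipocytes 27 of the 46 that passed the filter were higher and 9 lower, beside 33.3% and 30.8% of all genes, with a median log2 fold of 0.96 beside 0.11 over all genes. The scaling moved these values, to 21 higher and 10 lower with a median of 0.59 in DESeq2. In that fit 2437 of all 12093 genes were higher and 4474 lower, with a median of -0.21. On library totals 21 pathway genes were higher and 11 lower, with a median of 0.45. Over all genes these were 1977 and 4940, with a median of -0.40. Plin1, Cidec and Lipe of these lists had also served to name the adipocytes.

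Of the genes of the same families, Agpat4 had the opposite pattern to the members, at 3.84 and 3.40 CPM in adipocytes, 82.6 and 69.8 CPM in FAPs and 51.5 and 51.3 CPM in immune nuclei, a log2 fold of -3.18 ± 0.35 (edgeR, adjusted p = 1.16e-12). Agpat1 (0.86 ± 0.24) and Lclat1 (0.61 ± 0.23) passed as higher in adipocytes in edgeR but in neither DESeq2 nor the fit on library totals, and Agpat5 (-0.02 ± 0.30) and Lpin3 (1.37 ± 1.07) did not pass. Gpat2 and Mogat2 did not pass the filter on low counts. Gpat2 was at 0.167 and 0.3 CPM in adipocytes, and Mogat2 at 23.4 and 15.5 CPM there against 6.19 and 4.10 CPM in FAPs.

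In the supply of glycerol 3-phosphate 4 of 5 genes were higher in adipocytes, led by Pck1 (log2 fold 3.27), the enzyme of glyceroneogenesis, and none was lower. Of the acyl-CoA synthetases 4 of 6 were higher, led by Acsl1 (3.94) and the fatty acid transporter Slc27a1 (3.08). All 5 genes of triglyceride breakdown were higher, among them Lipe (2.99) and G0s2 (3.16), an inhibitor of the first lipase, as were 4 of 5 genes of droplet assembly, with Plin1 (3.44) and Cidec (3.27).

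The routes that lead away from triglyceride were split. Of the branch to phospholipids 4 of 6 were higher, led by the cholinephosphotransferase Chpt1 (3.29), and 1 was lower. Of the diacylglycerol kinases, which turn diacylglycerol back into phosphatidate, 6 of 9 were lower in adipocytes, led by Dgkh (-2.77), and 2 were higher, with a median log2 fold of -1.93. Of the 3 lipin regulators 1 was higher, and of the 2 lipid phosphate phosphatases tested 1 was higher and 1 lower.

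**Figure D5:**
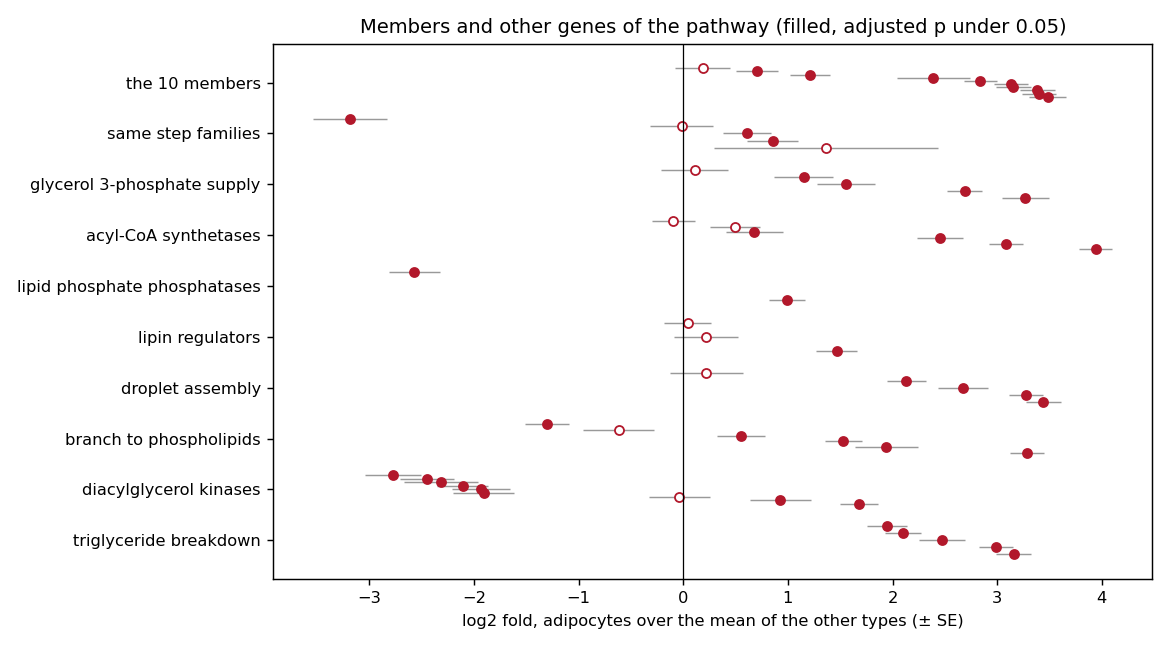
Log2 fold in adipocytes over the mean of the other 5 types (horizontal axis, ± SE) for the 10 members and for each list of other pathway genes (rows), filled where the adjusted p was below 0.05. Triglyceride breakdown and droplet assembly lie at positive values like most members, and 6 of the 9 diacylglycerol kinases at -1.91 or lower.

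In the Cidea-high subcluster 8 of the 48 pathway genes tested were higher and 4 lower, beside 4.89% and 3.38% of all genes. These counts depended on the fit, with 5 higher and 0 lower in DESeq2, 7 and 0 at resolution 0.3, and 2 and 0 without the library as a block. Calls over all genes moved too, from 691 higher and 478 lower of 14123. They were 309 and 207 in DESeq2, 466 and 323 of 13622 at resolution 0.3, and 39 and 15 without the block. The genes named here were chosen after their values had been seen. Acsl5, an acyl-CoA synthetase, stood at 203 and 137 CPM there and at 27.9 and 26.5 CPM in the remaining adipocytes (log2 fold 2.61 ± 0.17), and Gk, the glycerol kinase, at 40.6 and 172 CPM against 18.3 and 29.8 CPM (2.19 ± 0.22). Pck1 was at 305 and 362 CPM against 179 and 76.2 CPM (1.61 ± 0.20), and Gpd1 at 1809 and 1140 CPM against 1217 and 702 CPM (0.67 ± 0.13). With Aqp7 (0.67 ± 0.21) 4 of 5 genes of glycerol 3-phosphate supply were higher there, and none was lower. These 5 genes passed in edgeR, with adjusted p from 2.51e-14 (Acsl5) to 0.0380 (Aqp7), while Pck1 and Aqp7 did not pass in DESeq2 and only Acsl5 of the 5 passed without the block.

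The 4 genes that were lower in the fit with TMM factors had smaller log2 folds. They were Cidec of droplet assembly (-0.52 ± 0.14, adjusted p = 0.0133, edgeR), Abhd5 (-0.54 ± 0.16, adjusted p = 0.0287) and G0s2 (-0.51 ± 0.15, adjusted p = 0.0207) of triglyceride breakdown, and Plpp3 of the lipid phosphate phosphatases (-0.51 ± 0.14, adjusted p = 0.0181). Abhd5 activates and G0s2 inhibits the first lipase. None of the 4 passed in DESeq2, at resolution 0.3 or without the block.

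The genes whose levels over the 12 sums (6 types in 2 libraries) were most like those of each member, among 16311 genes with at least 100 UMIs, are given as a description. For Gpam they were Acvr1c (Pearson r = 0.971 of log2(CPM + 1)), Tshr and Acss2, and for Gpat3 they were Acvr1c (0.964), Gpam and Sc5d. For Agpat2 they were Cdo1 (0.986) and Dgat2, for Lpin1 they were Tmem120b (0.982), Ppp1r3b and Cyp2e1, for Dgat1 they were Smoc1 (0.977), Acly and Mlxipl, and for Dgat2 they were Tkt (0.993) and Fasn.

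The remaining members had lower coefficients. For Gpat4 they were Stradb (0.941), Nudt5 and Dusp10, for Mogat1 they were Stradb (0.956), Utp14a and Dusp10, for Agpat3 they were Arfip2 (0.896), Myorg and Mir99ahg, and for Lpin2 they were Dnajc7 (0.904) and Fbxo42. The 12 sums share 2 libraries.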

How the data were processed

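Reads had been aligned to GRCm39 by the authors, who used CeleScope, and they deposited a table of UMI counts per gene and nucleus for each of the 2 libraries. The strand used in counting is not given in the sources used here, and further deposited tables of the same libraries were not used. Nuclei with more than 500 genes, more than 1000 UMIs and less than 15% mitochondrial UMIs were kept, 2833 and 12225 in replicates 1 and 2. The 10 genes and the pathway lists were chosen with earlier results of these data known.

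Nuclei were clustered with scanpy 1.11.5 and leidenalg 0.10.2 (1000 variable genes without the members and pathway genes, 30 principal components, libraries integrated, resolution 0.1, and again within each cluster). Clusters were named from fixed markers by a rule of which 4 versions were tried after the clusters had been seen, so names are rebuilt and not the authors' own. Clusters with markers of adipocytes beside another type stayed unnamed, as did all subclusters of a cluster that had no type. No doublets were removed for the reported values, and removing the nuclei of highest doublet score was an alternative.

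UMI counts were summed per library and type and tested in edgeR 4.0.16 (quasi-likelihood, TMM factors, filter on low counts, library as block, Benjamini-Hochberg adjustment over all genes tested, threshold 0.05), with DESeq2 1.42.0 as an alternative, in R 4.3.3. The block stands because the types compared come from the same mouse. The fit was tested on simulated data, in which it recovered 63% of 2-fold and 97% of 4-fold changes for the adipocyte comparison over 10918 genes. For the subclusters it recovered 20% and 75% over 13648 genes. The simulated sums shared a fixed spread, the libraries differed in depth only, and changes were put only into genes of higher counts. These percentages are therefore not the power of the tests on the real data. Intervals are exact at 95% and cover counting error only. A count of 0 was left at 0, and the level that 3 UMIs would have had was given beside it. Named were all members, their families, the 10 pathway genes with the largest log2 folds in adipocytes, the 3 genes most like each member (some are not reported here) and the leading genes of the subcluster, and pathway genes of the subcluster were named after their values had been seen. Gene positions came from GENCODE vM39.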

Additional observations from a re-analysis of the deposited data

How the results depend on the processing

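Between 8 and 9 of the 10 genes were higher in adipocytes under every alternative run. Agpat3 lost its call under DESeq2 and library totals, and without replicates 1 and 2 its log2 difference was 0.58 and 0.91 with the TMM factors kept and -0.023 and 0.49 with library totals, a pairing of choices added after seeing the data. Lpin2 in adipocytes, not called in any fit, turned to -0.11 in DESeq2, -0.33 with library totals and -0.084 at a mitochondrial limit of 5%. Genes lower in mesothelial nuclei were 2 as reported, 0 without the replicate block, and 4 with 15 principal components or resolution 0.3. In FAPs they were 5, but 1 without the block, 7 at the 5% limit and 4 with DESeq2 or high doublet scores removed. In immune nuclei they were 2, but 1 with DESeq2, library totals or no integration, 0 without the block, 4 with 15 components, 5 at resolution 0.3 and 8 at the 5% limit, and 1 gene was higher with library totals and at resolution 0.3. In endothelial nuclei they were 3, but 0 without the block, 6 with 15 components and 5 at resolution 0.3. In smooth muscle they were 2, but 4 without the filter and 0 with DESeq2, library totals, no block, 15 components, resolution 0.3, no integration or members kept as features. Between the adipocyte subclusters 3 genes differed, and 0 without the block. There, Mogat1 turned to -0.089 at resolution 0.3 and Dgat1 to 0.23 with high doublet scores removed. The mean Gpat4 share was 4.41% (resolution 0.3) and 4.86% (5% limit) in adipocytes, 25.4% in FAPs (5% limit), 16.6% (no integration) and 19.9% (5% limit) in immune nuclei, 21.0%, 20.8% and 19.9% in endothelial nuclei (15 components, resolution 0.3, no integration) and 16.8% and 17.2% in smooth muscle (15 components, resolution 0.3), and that of Agpat3 23.7% in smooth muscle (resolution 0.3). The cause of these shifts was not tested. Leaving out a library leaves 1 sum per type, hence values without a test. At the 5% limit only adipocytes, FAPs and immune nuclei kept 20 nuclei per library, so each was set against a mean of fewer types there. The small types are limited by the few nuclei of replicate 1, 48 endothelial and 23 smooth muscle.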
